A study of Mus musculus with 9 samples.

Results

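The clustered replication-dependent histone genes of the mouse were followed through 9 RNA libraries of the heart ventricle. They were chosen by name alone, as gene symbols that begin with Hist1h, Hist2h, Hist3h or Hist4h, and 70 of the 49585 rows of the count table met that rule. By their symbols, 6 encode the linker histone H1, and 20, 19, 12 and 13 encode the core histones H2A, H2B, H3 and H4. Counts were high enough for a test in 24 of the 70, which held 96.2% of all histone counts, and 46 were too low. In the GENCODE vM21 annotation (GRCm38, the assembly of mm10) 56 of the genes lie on chromosome 13, 10 on chromosome 3, 3 on chromosome 11 and 1, Hist4h4, on chromosome 6. The annotation lists 3 of them as pseudogenes, Hist3h2bb-ps, whose symbol says so, and Hist1h2al and Hist1h2aj, whose symbols do not; the other 67 are protein-coding.

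The 3 groups had 3 libraries each, all from whole ventricle of male mice on a mixed C57BL/6 and ICR background. In every group the genotype included Tcf21iCre with the R26 tdTomato reporter, and tamoxifen was given at 2 mg per day on 5 days in week 5 by intraperitoneal injection. Ctrl received normal chow. Ctrl_HF was kept for 15 weeks on a diet with 60% of kilocalories from fat and on the nitric oxide synthase inhibitor L-NAME at 1.0 g/L of drinking water, which models heart failure in which ejection fraction is preserved. TTg_HF received the same and also carried MGTH2A, a transgene that, as background knowledge of the line, joins Mef2c, Gata4, Tbx5 and Hand2. Tcf21 marks the fibroblast lineage and drives the inducible Cre, so the transgene is switched on in a minority lineage of a tissue that was sequenced whole. No transgenic group on chow was analysed here, so TTg_HF and Ctrl differ in diet, L-NAME and genotype. Ages are not given in the labels, and whether every library had its own animal is not stated there, so that p-values measure the spread between these libraries, which may be partly technical.

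Core histones wrap DNA into nucleosomes and H1 binds the DNA between them. The genes of these clusters are transcribed mainly in S phase, when newly replicated DNA has to be packaged, and most cells of the adult ventricle do not divide. Their mRNAs are the ones in animal cells that normally end without a poly(A) tail: the transcript is cut just after a short stem-loop, which the stem-loop binding protein Slbp and the U7 small nuclear ribonucleoprotein recognise. Libraries made from poly(A) RNA lose such mRNAs, and the present ones were made from total RNA after depletion of ribosomal RNA. Some clustered histone genes are also known to give polyadenylated transcripts that run past the stem-loop in differentiated cells.

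The stem-loop is the feature that sets these mRNAs apart, so it was searched for in the GENCODE vM21 transcripts, as a run of 16 bases of the form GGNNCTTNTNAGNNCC whose first 6 bases pair with the last 6. It was present on the transcript strand in 46 of the 70 histone genes (65.7%) and in 9 of 21810 other protein-coding genes (0.0413%). It was found in 4 of 6 H1 genes, 11 of 20 H2A, 10 of 19 H2B, 9 of 12 H3 and 12 of 13 H4. Of the 24 genes without a match, 11 are annotated as coding sequence alone. The rest include the H2B genes Hist1h2bc and Hist2h2be. A missing match in the rest says only that these letters are not in the annotated transcript. The sequences below, 5′ to 3′ with up to 5 bases on each side, are those of abundant or contrasting members, and the capitals mark the stem-loop.
Hist1h1c (chr13:23739512-23739527, plus strand): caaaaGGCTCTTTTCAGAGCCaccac
Hist1h1e (chr13:23621782-23621797, minus strand): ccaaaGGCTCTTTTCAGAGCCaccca
Hist2h2ac (chr3:96220418-96220433, minus strand): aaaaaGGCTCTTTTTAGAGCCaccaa
Hist1h2be (chr13:23585531-23585546, minus strand): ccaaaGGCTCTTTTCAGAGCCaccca
Hist1h3e (chr13:23561903-23561918, minus strand): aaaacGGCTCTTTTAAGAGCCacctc
Hist1h4h (chr13:23531458-23531473, plus strand): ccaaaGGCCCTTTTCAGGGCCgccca
Hist4h4 (chr6:136803998-136804013, minus strand): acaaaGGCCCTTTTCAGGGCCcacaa
Hist2h4 (chr3:96262939-96262954, minus strand): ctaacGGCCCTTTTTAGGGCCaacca
Hist1h4i (chr13:22040966-22040981, minus strand): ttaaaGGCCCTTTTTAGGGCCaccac
Hist1h4j (chr13:21735437-21735452, plus strand): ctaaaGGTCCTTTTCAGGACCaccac

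The stem itself differed by class. All 34 matches in H1, H2A, H2B and H3 genes had GGCTCT as the first arm. None of the 12 matches in H4 genes did: 10 had GGCCCT, as in Hist1h4h above, and 2, Hist1h4b and Hist1h4j, had GGTCCT. The whole run of 16 bases was less tied to class outside H4. That of Hist1h1c recurred in 3 H1, 10 H2A, 8 H2B and 5 H3 genes, and that of Hist1h3e in 1 H1, 2 H2B and 3 H3 genes, each count including the gene named. Among the H4 genes, 7 had the run of Hist1h4h and 2, Hist1h4i and Hist2h4, shared another. The stem-loop began 21 to 58 bases after the stop codon.

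What differed far more was the annotated transcript beyond it. The transcript continued for 3 to 4884 bases past the stem-loop. It ran for more than 100 bases in 23 genes, of which 15 were tested and which took 69.2% of all histone counts. It ended within 100 bases in the other 23, of which 5 were tested and which took 14% of the counts, and the 24 genes with no match took 16.8%, with 4 of them tested. Hist1h1c had 840 annotated bases after the stem-loop, Hist1h1e 1153 and Hist4h4 2445, whereas Hist1h4h had 46 and Hist1h4n 31. A longer annotated transcript can also collect more reads, and counts per gene do not tell at which end a transcript stopped.

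**Figure D1:**
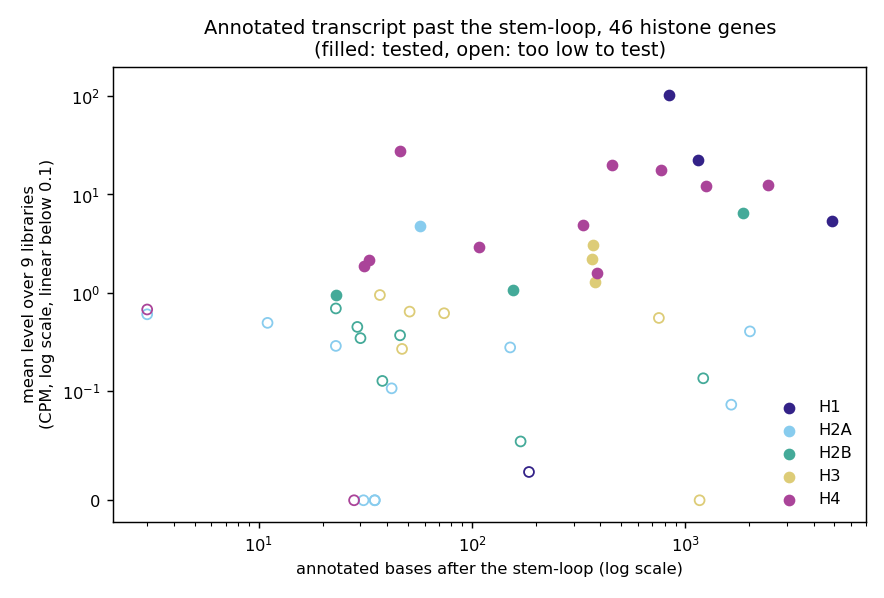
Mean level over the 9 libraries (vertical axis, CPM, log scale that is linear below 0.1) against the annotated bases after the stem-loop (horizontal axis, log scale) for the 46 histone genes with a stem-loop, coloured by class; filled points were tested, open points were too low. Hist1h1c, the highest point, has 840 bases after its stem-loop, and Hist1h4h, the highest of the genes with under 100, has 46.

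Library totals ran from 6743109 to 9364336 counts, and a single count was worth 0.105 to 0.147 CPM, a count scaled to a common library total after TMM normalisation. Histone genes took between 1891 counts, in Ctrl_HF replicate 2, and 3145, in TTg_HF replicate 2. As a share of all counts the lowest library was Ctrl_HF replicate 3 at 0.0252% (exact binomial 95% interval 0.0241 to 0.0262) and the highest Ctrl_HF replicate 1 at 0.0375% (0.0361 to 0.0389), intervals that cover counting error only. The Ctrl_HF libraries also stood apart from each other over all genes. On the first principal component (31.2% of the variance) the scores were 5.12, 48.5 and 23.5 for Ctrl_HF replicates 1 to 3, whereas the 6 other libraries had scores from -23.5 to -2.33.

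Counts assigned to histone genes came mainly from H1 and H4 genes. Over the 9 libraries H1 took 42.3% of the 23118 histone counts (39.5 to 44.7% in single libraries) and H4 33.2% (29.6 to 38.5%). H2B took 15.1% (12.1 to 17.4%), H2A 6.26% (3.5 to 7.72%) and H3 3.09% (2.5 to 3.66%). The mean over the 9 libraries kept this order after division by annotated exonic length: the summed level per kilobase was 10 CPM for H1, 9.67 for H4, 2.33 for H2B, 1.52 for H2A and 0.995 for H3. In 3 single libraries H4 was above H1 per kilobase, with 11.7 against 11.6 CPM in Ctrl replicate 2, 8 against 7.65 in Ctrl_HF replicate 3 and 10.3 against 8.72 in TTg_HF replicate 1. Hist1h1d, at a mean of 5.38 CPM, has 7425 bases of the 13.31 kilobases of H1 exon, which lowers H1 per kilobase. How near H1 and H4 came therefore rests on that annotated transcript. The pseudogene Hist1h2al held 835 of the 1447 H2A counts. The shares rest on how reads that match several genes were counted, which is unknown. The median share of a gene's 50-base runs found in no other gene, on either strand, was 98.8% in H1 genes. It was 60.5% in H4, 55.9% in H2B, 38% in H3 and 26.8% in H2A.

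Few genes carried most of this. Hist1h1c, an H1 gene, alone held 32.9% of the histone counts (29.1 to 35.9% per library), and the 12 most abundant genes held 87.4%. Per kilobase of annotated exon the mean level over the 9 libraries was 66.5 CPM for Hist1h1c and 59.5 for the H4 gene Hist1h4h. The pseudogene Hist1h2al (chr13:51202727-51203065, minus strand) came next at 33.5, followed by the H2B gene Hist1h2bc at 25.7 and the H4 genes Hist1h4c at 24.3 and Hist1h4d at 15.6. Hist1h1e reached 11.6, Hist2h2ac 9.09, Hist2h4 7.48 and Hist1h4i 6.71 CPM per kilobase. The most abundant H3 gene, Hist1h3e, was at 3.70. Of the genes known from the testis, Hist1h1t and Hist1h2aa were close to absent, with highest counts of 1 and 0 in any library. Hist1h2ba was low but present, with up to 7 counts in a library. It was above 0 in 7 of the 9 libraries and reached a mean of 1.28 CPM per kilobase.

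The low genes have to be read together with how alike these genes are. Within a class, coding sequences of equal length were identical at a median of 96.4% of bases for H2A pairs, 97.1% for H2B, 97.6% for H3 and 93.9% for H4, and pairs with 100% identity occurred in H2A, H2B and H4. As a measure of what reads can tell apart, each gene's transcripts were split into runs of 50 bases. The share found in no other gene, on either strand, was counted. Exons of every H2A gene overlap a gene annotated on the opposite strand, which can lower this share. Directional reads could tell such genes apart if strand was used in counting, which is not known. Among tested genes the median share was 68.7% (14.4 to 100%), and among genes too low for a test it was 30.7%. Of the 12 genes with no count in any library, 9 had under 12% unique runs, and no gene with so small a share exceeded 10 counts in any library. Some unique sequence did not guarantee counts: Hist1h2aa, with 76.2%, and the pseudogene Hist3h2bb-ps, with 70%, were also at 0 throughout. The sources used here do not say how reads that match several genes were counted, so low or absent counts of near-identical genes are uncertain.

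**Figure D2:**
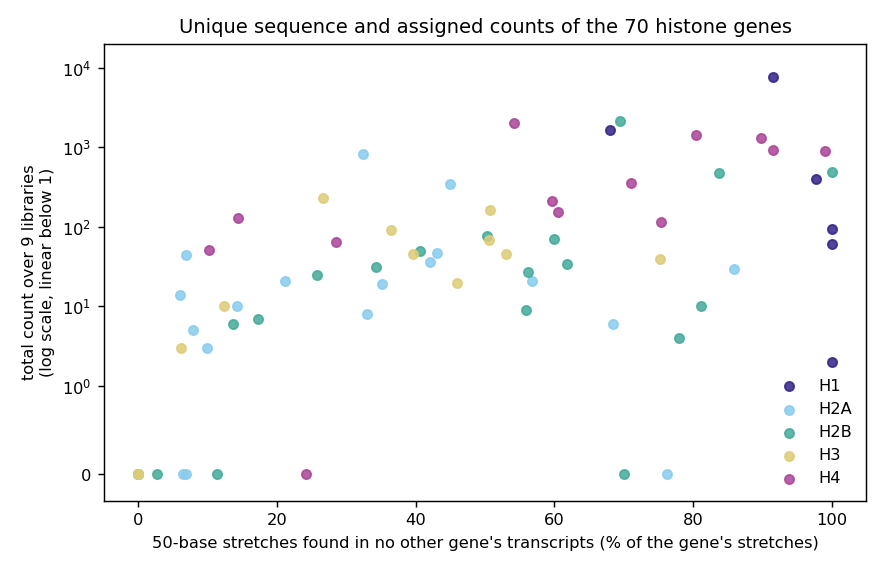
Total count over the 9 libraries (vertical axis, log scale that is linear below 1) against unique 50-base runs (horizontal axis, percent of a gene's runs) for the 70 histone genes, coloured by class. Unique runs are those found in no other gene's transcripts on either strand. Of the 12 genes on the bottom line at 0 counts, 9 have under 12% unique runs, and Hist1h1c, the highest point, has 91.5%.

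The same caution applies to several genes named below. Hist1h4n had 14.4% unique runs, Hist1h3e 26.6% and Hist1h2al 32.4%. Exons of Hist1h1e overlap those of Hist1h2be and of the predicted gene Gm11398 on the same strand, so their reads cannot be assigned with certainty. The 12 genes with no count were Hist1h2aa, Hist1h2aj, Hist1h2ao, Hist1h2bq, Hist1h2br, Hist1h4b, Hist2h2aa1, Hist2h2aa2, Hist2h2bb, Hist2h3b, Hist2h3c1 and Hist3h2bb-ps. Where a gene's reads could be counted, a 0 over all libraries allows a level of up to 0.0412 CPM, taken as 3 counts of the summed total. For the 5 of these genes with no unique run, a 0 sets no limit if reads that match several genes on either strand were dropped. A 0 then sets little limit for others with few unique runs. The remaining untested genes reached at most 15 counts in a library, in Hist1h4k, and a mean of at most 0.948 CPM.

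Summed over all 70 genes, the histone level was 279, 361 and 356 CPM in Ctrl replicates 1 to 3, 369.7, 276.5 and 258 in Ctrl_HF, and 293, 331.5 and 321 in TTg_HF. The highest and the lowest of the 9 libraries were both Ctrl_HF libraries, and the ranges of the 3 groups overlapped. The group means were 332 ± 45.8, 301 ± 59.9 and 315 ± 19.9 CPM (SD, n = 3 each). The ratio of means was -0.14 on the log2 scale for Ctrl_HF against Ctrl, 0.06 for TTg_HF against Ctrl_HF and -0.08 for TTg_HF against Ctrl. Each was smaller than the replicate SD of the log2 sums, which was 0.24, 0.21 and 0.16 for the groups compared, and no p-value is given for a sum over chosen genes. Leaving out Hist1h1c, a step chosen after seeing the data, gave -0.15, 0.06 and -0.10. Single Ctrl_HF libraries moved the first 2 ratios further: they were -0.31 and 0.24 without replicate 1, and -0.04 each without replicate 3, which turned the sign for TTg_HF against Ctrl_HF.

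The split within Ctrl_HF was not equal across the classes. H1 genes summed to 160.1, 115.5 and 102 CPM in Ctrl_HF replicates 1 to 3, and H4 genes to 129, 83.5 and 87.1. H2A genes, at 23.7, 21.35 and 16.45 CPM, and H3 genes, at 11.8, 8.77 and 7.645, were also highest in replicate 1. H2B genes, by contrast, were at 44.8, 47.4 and 44.8 CPM in the same libraries, a narrower range. Most H2B counts came from Hist1h2bc, at 26.4, 30.3 and 28.7 CPM. Of the other tested H2B genes, Hist1h2bb and Hist1h2bg were highest in replicate 1, and Hist1h2be and Hist2h2be were not. For comparison, Ctrl libraries held 118.5, 154 and 149.7 CPM of H1 and 93.4, 128 and 112 of H4. H2A stood lowest in TTg_HF replicate 1, at 10.3 CPM, against 16.3 to 26.15 in the 8 other libraries. Much of this gap lay in the pseudogene Hist1h2al, which is part of the sum. It was at 3.81 CPM in that library and at 8.28 to 15.95 in the 8 others, so the sum does not show a drop across the class.

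**Figure D3:**
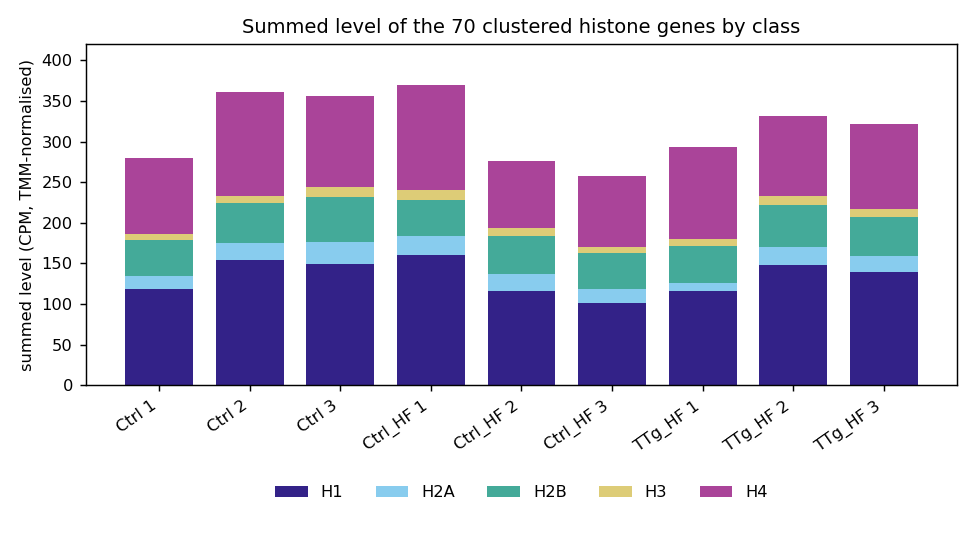
Summed level of the 70 histone genes in each of the 9 libraries (vertical axis, CPM after TMM normalisation), stacked by histone class. Ctrl_HF replicate 1 has the tallest bar at 369.7 CPM and Ctrl_HF replicate 3 the shortest at 258 CPM, and H1 and H4 make up most of every bar.

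The first comparison, Ctrl_HF against Ctrl, asks what differed with the high-fat diet and L-NAME in mice without the transgene. None of the 24 tested histone genes passed the threshold of 0.05 on the adjusted p of edgeR's quasi-likelihood test, in a comparison in which 3.61% of all tested genes passed. DESeq2 called none either. At an unadjusted p under 0.05 there were 4 of 24 with either tool, which is 16.7% of them against 20.6% of all genes in edgeR. The groups did not overlap in 4 of the 24, or 16.7% against 23.3% of all genes, with 1 higher (4.17%, against 11.5%) and 3 lower in Ctrl_HF (12.5%, against 11.8%). The median log2 fold change of the 24 was -0.13, beside 0.01 over all tested genes, and 14 of 24 (58.3%, against 48.5%) lay below 0.

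Hist1h1c, the gene with the most counts, was at 95.2, 115 and 112 CPM in Ctrl and at 127, 90.1 and 79.7 in Ctrl_HF. The Ctrl_HF libraries lay on both sides of the Ctrl range. The log2 fold change was -0.12 (SE 0.18, 95% interval -0.52 to 0.28, adjusted p = 0.763 by edgeR), without Ctrl_HF replicate 3 it turned to 0.02, and without Ctrl_HF replicate 1 it was -0.34.

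The lowest p-value belonged to Hist2h2be, which encodes an H2B variant described in olfactory neurons of the mouse. This gene had no stem-loop match in its annotated transcript. It was at 8.65, 8.89 and 8.68 CPM in Ctrl and at 4.52, 5.12 and 6.37 in Ctrl_HF. All Ctrl_HF libraries were below all Ctrl libraries, and the Ctrl values were close together (8.74 ± 0.133 against 5.34 ± 0.945, SD, n = 3). The difference of -0.70 on the log2 scale (SE 0.21) had an unadjusted p of 0.00612 and an adjusted p of 0.0914 by edgeR. Its partner Hist2h2ac, an H2A gene transcribed away from it, was at 5.44, 5.43 and 6.21 CPM in Ctrl and 5.34, 3.80 and 3.82 in Ctrl_HF, also without overlap (log2 fold change -0.40, SE 0.22, adjusted p = 0.335).

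Among H4 genes the differences went both ways. Hist1h4h, the most abundant of them, was at 27.3, 36.6 and 31.4 CPM in Ctrl and 25.9, 20.9 and 24.2 in Ctrl_HF, so that the groups did not overlap (log2 fold change -0.42, SE 0.14, adjusted p = 0.116 by edgeR). Hist1h4n was at 1.48, 1.62 and 0.704 CPM in Ctrl and 3.83, 2.63 and 1.62 in Ctrl_HF, all Ctrl_HF libraries being above Ctrl by a margin that was very small for replicate 3 (1.07, SE 0.42, adjusted p = 0.180). Without Ctrl_HF replicate 1 the log2 fold change was 0.72 (adjusted p = 0.355). This gene has few unique runs, and 131 counts in all. Of the 10 tested H4 genes 5 had a fold change below 0 and 5 above, with a median of -0.01, whereas 3 of 4 H1 genes lay below 0, with a median of -0.24. The medians were -0.11 for the 5 H2B genes and -0.15 for the 3 H3 genes. Of all tested genes 48.5% lay below 0 in this comparison.

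Hist4h4, the H4 gene that lies alone on chromosome 6, depended on a single library. It was at 12.7, 13.98 and 14.1 CPM in Ctrl, and at 13.97, 7.17 and 7.18 in Ctrl_HF replicates 1, 2 and 3. Ctrl_HF replicate 1 thus had the level of the Ctrl libraries, and the other 2 Ctrl_HF libraries were alike and lower. With all libraries the log2 fold change was -0.53 (SE 0.23, adjusted p = 0.224 by edgeR). Without Ctrl_HF replicate 1 it was -0.92 with an adjusted p of 0.00585, and over all alternatives its adjusted p ran from 0.00585 to 0.490. It was the only one of 25 members tested in that fit to pass (4%), below the share of all genes, 1122 of 12892 (8.7%). The H1 gene Hist1h1e, at 19.03, 30.4 and 27.2 CPM in Ctrl and 23.8, 19.5 and 16.9 in Ctrl_HF, overlapped between the groups (log2 fold change -0.35, SE 0.18, adjusted p = 0.293).

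Ctrl_HF replicate 1 was in fact the highest library of its group for 17 of the 24 tested genes, replicate 2 for 5 and replicate 3 for 2. Over all tested genes it was the highest of the 3 for 35%. Among those 17 was the H4 gene Hist1h4c, at 28.5, 17.7 and 16.5 CPM in Ctrl_HF replicates 1 to 3, where Ctrl had 16.6, 22.3 and 18.2. Hist1h4d, another H4 gene, had 23.3, 13.8 and 16.8 CPM there, inside the 12.4 to 24.5 of Ctrl. The abundant H2B gene Hist1h2bc did not share this order: its values were 26.4, 30.3 and 28.7 CPM in Ctrl_HF replicates 1 to 3 and 24.5, 31.1 and 36.6 in Ctrl (log2 fold change -0.11, SE 0.14).

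**Figure D4:**
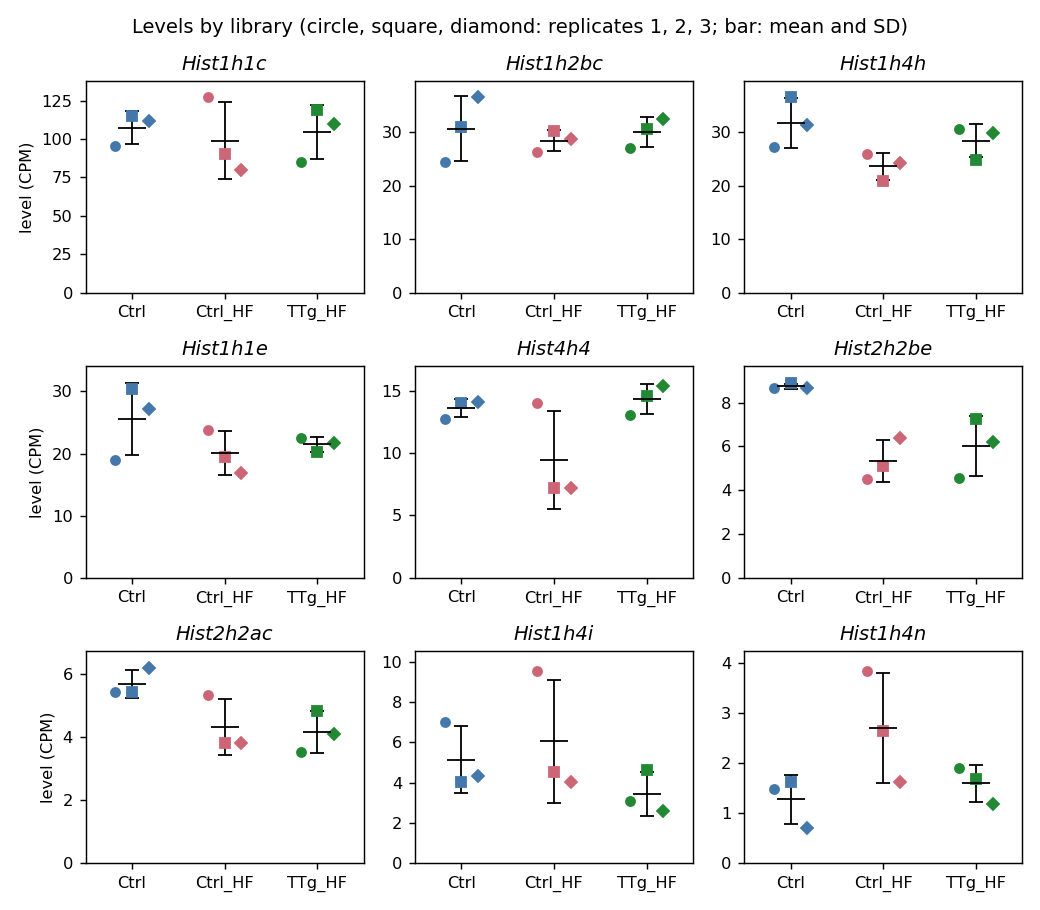
Level (CPM after TMM normalisation) of 9 histone genes in each library; circle, square and diamond are replicates 1, 2 and 3, and the bar and whiskers are the group mean and SD (n = 3). Ctrl and Ctrl_HF do not overlap for Hist1h4h, Hist2h2be, Hist2h2ac and Hist1h4n, and for Hist4h4 the Ctrl_HF circle, at 13.97 CPM, stands apart from the square and diamond, at 7.17 and 7.18.

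The second comparison, TTg_HF against Ctrl_HF, asks what differed with the transgene among mice on the high-fat diet and L-NAME. No histone gene of the 24 passed the adjusted threshold in edgeR or in DESeq2, where 0.0868% of all tested genes passed in edgeR. At an unadjusted p under 0.05 there was 1 of 24 with either tool (4.17%, against 14.3% of all genes in edgeR). The groups did not overlap for 1 of 24, Hist1h1d, against 18.8% of all genes, and that gene was higher in TTg_HF, against 9.31% of all genes higher without overlap. The median log2 fold change was 0.06, beside -0.001 over all tested genes, with 11 of 24 (45.8%, against 50.1%) below 0.

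Hist4h4 was again the member of lowest p. TTg_HF libraries held 13.1, 14.5 and 15.4 CPM, against 13.97, 7.17 and 7.18 in Ctrl_HF, and the groups overlapped only through Ctrl_HF replicate 1. The log2 fold change was 0.61 (SE 0.23, adjusted p = 0.267 by edgeR). Without Ctrl_HF replicate 1 it was 1.00 with an adjusted p of 0.00574, and the range of the adjusted p over the alternatives was 0.00574 to 0.597. Of all genes 665 of 12892 (5.16%) passed in that fit, near the 4% of members. This comparison and the first share the Ctrl_HF libraries, so the opposite signs in them are not independent.

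Hist1h4i was at 9.59, 4.53 and 4.05 CPM in Ctrl_HF and 3.08, 4.64 and 2.58 in TTg_HF, which overlapped (log2 fold change -0.80, SE 0.38, adjusted p = 0.369). Without Ctrl_HF replicate 1 its log2 fold change was -0.30. Hist2h4 was at 12.1, 10.2 and 9.96 CPM in Ctrl_HF and 14.4, 13.7 and 11.96 in TTg_HF (0.31, SE 0.16, adjusted p = 0.396), and its groups overlapped by a narrow margin. Hist1h4h had 30.6, 24.9 and 29.9 CPM in TTg_HF (0.26, SE 0.14, adjusted p = 0.426), and Hist1h4n 1.91, 1.69 and 1.17 (-0.75, SE 0.41, adjusted p = 0.433). The value for Hist1h4n was -0.41 without Ctrl_HF replicate 1 (adjusted p = 0.650). Hist1h1d, an H1 gene, had 5.34, 4.39 and 3.48 CPM in Ctrl_HF and 5.42, 6.22 and 5.75 in TTg_HF (0.41, SE 0.35, adjusted p = 0.644).

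By class, all 4 H1 genes lay above 0, with a median of 0.20, and 7 of 10 H4 genes lay below 0, with a median of -0.20. Of all tested genes 50.1% lay below 0, and the 95% interval of each of the 4 H1 genes included 0. For Hist1h1c the TTg_HF values were 85.3, 119 and 110.0 CPM and the log2 fold change was 0.08 (SE 0.18, 95% interval -0.32 to 0.48), which turned to -0.05 without Ctrl_HF replicate 3 and to -0.02 without TTg_HF replicate 2, and was 0.31 without Ctrl_HF replicate 1. The pseudogene Hist1h2al had 3.81 CPM in TTg_HF replicate 1 and 9.85 to 14.04 in the other 5 libraries of this comparison. The H2A sum, which includes Hist1h2al, was lowest in that same library. Hist2h2ac was there at 3.52 CPM, the lowest of its 9 values.

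The last comparison, TTg_HF against Ctrl, sets transgenic hearts of the model beside hearts on chow and mixes diet, L-NAME and genotype. Again 0 of 24 histone genes passed in edgeR and in DESeq2, while 0.466% of all tested genes passed in edgeR. At an unadjusted p under 0.05 there was 1 with either tool (4.17%, against 9.41% of all genes in edgeR). The groups did not overlap for 2 of 24, both lower in TTg_HF, or 8.33% against 18.7% of all genes in either direction and 9.48% lower. The median log2 fold change was -0.04, beside -0.001, and 15 of 24 (62.5%, against 50.3%) lay below 0.

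These 2 genes were Hist2h2be and Hist2h2ac. Hist2h2be had 4.54, 7.27 and 6.22 CPM in TTg_HF, all below the narrow Ctrl range (log2 fold change -0.53, SE 0.20, adjusted p = 0.434 by edgeR). Hist2h2ac had 3.52, 4.85 and 4.11 CPM in TTg_HF, below the 5.43 to 6.21 of Ctrl (-0.44, SE 0.22, adjusted p = 0.582). Both also lay below Ctrl in all Ctrl_HF libraries, in a comparison that shares the Ctrl libraries with this one. Further genes of lowest p were Hist1h4i (-0.57, SE 0.38, adjusted p = 0.717), Hist1h1e (-0.25, SE 0.18, adjusted p = 0.731) and Hist1h4d (-0.34, SE 0.26, adjusted p = 0.770), and each overlapped with Ctrl. Hist4h4 differed by 0.08 (SE 0.22), Hist1h2bc by -0.03 (SE 0.14) and Hist1h1c by -0.03 (SE 0.18, 95% interval -0.43 to 0.36). The last of these turned to 0.02 without Ctrl replicate 2 and to 0.09 without TTg_HF replicate 1.

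**Figure D5:**
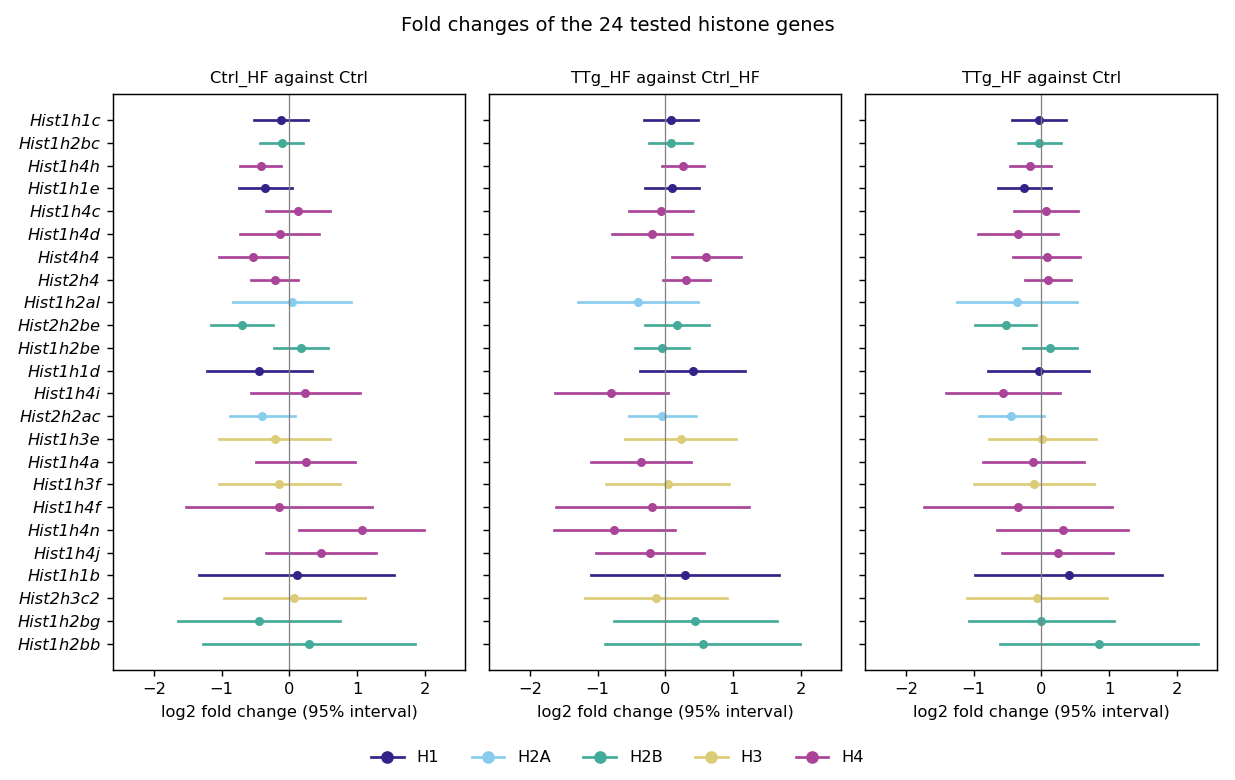
Log2 fold change (horizontal axis) with its 95% interval for the 24 tested histone genes in the 3 comparisons, ordered by mean level from the top and coloured by class. Most intervals include 0; those of Hist2h2be, Hist1h4h, Hist1h4n and Hist4h4 do not in the first panel, and those of Hist4h4 and Hist2h2be do not in the middle and right panels, all at an adjusted p above 0.05.

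The width of the intervals limits what these comparisons can show. The SE of the log2 fold change ran from 0.14 to 0.71 over the 24 genes in the first comparison, with a median of 0.34, so that differences of the size seen in most of these genes were not detectable at this depth and replicate number. For the most abundant gene, Hist1h1c, the 95% intervals of the 3 comparisons together spanned -0.52 to 0.48.

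Hist2h2ac and Hist2h2be are one of the divergent pairs in which the histone clusters are built. In the annotation 14 head-to-head pairs of histone genes had starts within 500 bases of each other, all of them an H2A gene with an H2B gene, and they took in 28 of the 70 genes. The gap between the starts was 172 to 305 bases, and for Hist2h2ac and Hist2h2be it was 238 bases (chr3:96220881-96221118). The pair was singled out after its values were seen. Hist1h2bc, the most abundant H2B gene, forms such a pair with Hist1h2ac over a gap of 250 bases, and Hist1h2ac was too low for a test.

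The shared promoter of that pair is shown because both genes lay below Ctrl in the other groups, and that of Hist1h4h, the most abundant H4 gene, because H4 promoters were built differently. They are RefSeq windows (GRCm38.p6) of 250 bases before to 50 after the start, 5′ to 3′ on the gene's strand. The first spans chr3:96220831-96221130 on the minus strand and covers the whole gap to Hist2h2be; the other spans chr13:23530794-23531093 on the plus strand. Capitals mark the letters of the TATA box (TATAA), the CCAAT box and the octamer (ATTTGCAT), each on either strand and wherever they fall in the window.
Hist2h2ac: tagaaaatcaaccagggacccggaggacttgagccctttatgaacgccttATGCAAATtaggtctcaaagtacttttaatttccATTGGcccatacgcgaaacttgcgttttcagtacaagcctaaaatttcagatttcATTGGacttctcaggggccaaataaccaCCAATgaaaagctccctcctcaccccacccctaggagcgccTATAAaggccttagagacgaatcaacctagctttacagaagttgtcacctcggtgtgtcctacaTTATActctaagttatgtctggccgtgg
Hist1h4h: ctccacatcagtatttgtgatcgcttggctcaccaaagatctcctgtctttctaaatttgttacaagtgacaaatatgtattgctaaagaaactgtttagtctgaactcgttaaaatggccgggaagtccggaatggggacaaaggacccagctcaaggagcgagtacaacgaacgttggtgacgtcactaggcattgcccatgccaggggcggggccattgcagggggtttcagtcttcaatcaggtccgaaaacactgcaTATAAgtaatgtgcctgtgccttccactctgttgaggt

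The window of Hist2h2ac held 3 matches to CCAAT, 2 to TATAA and 1 to the octamer ATTTGCAT. The last TATAA match lies after the annotated start and on the opposite strand. That of Hist1h4h held 1 match to TATAA and no other. RefSeq windows were matched to 61 of the 70 genes. CCAAT, the letters bound by the factor NF-Y, was in 52 of them (85.2%), against 37.4% of all 32851 RefSeq promoters of the same length. It was in 49 of the 49 windows of H1, H2A, H2B and H3 genes and in 3 of 12 of H4 genes. TATAA was in 48 (78.7%, against 24.9%). The octamer, the letters bound by Pou2f1, was in 13 (21.3%, against 1.74%), 7 of them H2A and 6 H2B. Windows of head-to-head pairs overlap, so a match can be counted for both genes, as the octamer between Hist1h2ae and Hist1h2bg was. These counts describe letters in a window, not bound sites.

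Genes that work with these histones were read from lists, and none of their members passed the adjusted threshold of edgeR in any of the 3 comparisons. Histone variant genes are mostly not tied to S phase, and their mRNAs are mostly polyadenylated. They were tested for 10 of 11. Their summed levels were 366 to 391 CPM in Ctrl, 341 to 396 in Ctrl_HF and 335 to 369 in TTg_HF. The medians of their log2 fold changes were -0.02, -0.14 and -0.08 in the 3 comparisons in the order above. H1f0, the linker histone of non-dividing cells, was at 59.0, 82.1 and 70.2 CPM in Ctrl, 59.97, 46.7 and 49.5 in Ctrl_HF and 62.9, 72.0 and 62.9 in TTg_HF. Its groups overlapped through Ctrl replicate 1 in the first comparison (log2 fold change -0.44, SE 0.13, adjusted p = 0.0991) and not in the second (0.34, SE 0.13, adjusted p = 0.281). Like Hist4h4, H1f0 passed in the first comparison without Ctrl_HF replicate 1 (adjusted p = 0.0295), where 8.7% of all genes passed. H2afx, the variant phosphorylated at DNA breaks, was at 6.799 ± 1.46, 9.34 ± 0.528 and 6.56 ± 1.18 CPM (SD, n = 3 each), and differed by 0.46 (SE 0.20, adjusted p = 0.225) and -0.50 (SE 0.20, adjusted p = 0.296) in the first and second comparison.

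Genes for the transcription, end processing and decay of histone mRNA were tested for 22 of 23, and their medians were -0.02, -0.03 and 0.01. Lsm10, a protein of the U7 particle that cuts these mRNAs, was at 11, 9.12 and 8.79 CPM in Ctrl, 9.86, 3.95 and 4.75 in Ctrl_HF and 9.82, 8.96 and 9.38 in TTg_HF. Ctrl_HF replicate 1 had the level of the other groups and replicates 2 and 3 were lower, as in Hist4h4. This likeness is not particular to these genes. Over all genes too, Ctrl_HF replicate 1 lay nearest the other groups on the first principal component (5.12, against 48.5 and 23.5). The log2 fold changes were -0.64 (SE 0.28, adjusted p = 0.231) and 0.60 (SE 0.28, adjusted p = 0.368). Both passed without Ctrl_HF replicate 1 (adjusted p = 0.00686 and 0.0121), where 8.7% and 5.16% of all genes passed. Snrpg, an Sm protein, differed by 0.54 (SE 0.26, adjusted p = 0.271) in the first comparison, and Srrt, a partner of the cap-binding complex, by -0.20 (SE 0.08, adjusted p = 0.310) in the second. Histone chaperones were tested for 14 of 15, with medians of -0.02, -0.09 and -0.02. Of these Nap1l1 (0.25, SE 0.09, adjusted p = 0.131), which carries H2A and H2B, and Ubn1 (0.26, SE 0.12, adjusted p = 0.225), of the HIRA complex, had the lowest p in the first comparison, and Asf1b (0.89, SE 0.49, adjusted p = 0.441) and Atrx (0.19, SE 0.11, adjusted p = 0.445) in the second.

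Because these histones are made in S phase, genes of DNA replication and mitosis were set beside them. Replication genes were tested for 22 of 29, with summed levels of 145 to 151 CPM in Ctrl, 125 to 139 in Ctrl_HF and 143.5 to 165 in TTg_HF, and medians of -0.09, 0.21 and 0.08. Their sum in Ctrl_HF was thus below that in both other groups in every library, which was seen after the fact. Of all single tested genes, 23.3% and 18.8% did not overlap in the first and second comparison. The lower sum did not hold for each gene: mean levels in Ctrl and Ctrl_HF were 15.3 and 15.3 CPM for Pcna and 17.2 and 17.3 for Rrm1. Mcm2, a subunit of the replicative helicase, was at 11.4, 10.6 and 9.73 CPM in Ctrl and 5.34, 7.46 and 3.36 in Ctrl_HF, without overlap (log2 fold change -0.99, SE 0.26, adjusted p = 0.0656 by edgeR), and passed in DESeq2 (0.0219, in a range of 0.0219 to 0.189 over the alternatives). Pole, the catalytic subunit of a replicative DNA polymerase, was at 4.38, 2.05 and 1.27 CPM in Ctrl_HF, against 4.08 to 5.89 in Ctrl and 3.99 to 4.64 in TTg_HF. The values of -0.91 (SE 0.37, adjusted p = 0.195) and 0.79 (SE 0.37, adjusted p = 0.369) passed without Ctrl_HF replicate 1 (0.0137 and 0.0285). In that fit 8.7% and 5.16% of all genes passed in the first and second comparison. Mcm5, another helicase subunit, differed by 0.50 in the second comparison (SE 0.26, adjusted p = 0.422).

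Mitotic genes were tested for 14 of 22, with sums of 66.9 to 89.5, 53.1 to 77.0 and 68.4 to 102 CPM, which overlapped between the groups, and medians of 0.15, 0.13 and 0.20. Cenpf, a kinetochore protein, was at 26.8, 41.0 and 53.0 CPM in Ctrl, 28.3, 13.9 and 22.5 in Ctrl_HF and 33.0, 42.1 and 36.9 in TTg_HF (-0.90, SE 0.29, adjusted p = 0.126 in the first comparison, 0.79, SE 0.29, adjusted p = 0.270 in the second). It passed in the first comparison in DESeq2 (adjusted p = 0.0231). Foxm1, a transcription factor of mitotic genes, differed by 0.55 in the first comparison (SE 0.30, adjusted p = 0.328), and Kif11, a spindle motor, by 0.42 in the second (SE 0.30, adjusted p = 0.551).

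Other RNAs listed as without a canonical poly(A) tail, in all or some of their forms, could not serve as a reference. Of 10 listed, 8 had no count in any library: Rn7sk, Rn7s1, Rn7s2, Rmrp, Rpph1, Rny1, Rny3 and Terc. Malat1, a nuclear RNA, was at 1728, 1867 and 1784 CPM in Ctrl, 1637, 2150.0 and 2431 in Ctrl_HF and 1621, 1590.0 and 1550.0 in TTg_HF. Here Ctrl_HF replicate 1 was the lowest of its group, the reverse of its place for most histone genes, and the log2 fold changes were 0.21 (SE 0.12, adjusted p = 0.345) and -0.39 (SE 0.12, adjusted p = 0.186). Without Ctrl_HF replicate 1 Malat1 passed in both comparisons (adjusted p = 0.0109 and 0.00236), where 8.7% and 5.16% of all genes passed. Neat1, also nuclear, differed by 0.02 and 0.05 (SE 0.15 each).

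The makeup of the tissue was followed by marker genes of its cell types. In bulk RNA, fewer cells of a type and less RNA per cell cannot be told apart. Cardiomyocyte markers were by far the highest of these lists, with all 8 tested, none past the threshold, and sums of 59370 to 67080 CPM in Ctrl, 53200 to 56060 in Ctrl_HF and 54400 to 57820 in TTg_HF. The sums of the 7 fibroblast markers were 901 to 1054, 1012 to 1387 and 1126 to 1357 CPM, and those of the 7 endothelial markers 840.1 to 1005, 932 to 989 and 858 to 1058, with none past the threshold. Macrophages can divide in the heart, and their 7 markers summed to 160.1 to 177, 222.5 to 276.5 and 226 to 250 CPM. Mrc1 was the only one of them to pass, higher in Ctrl_HF and in TTg_HF than in Ctrl (log2 fold change 0.84, adjusted p = 0.00680, and 0.61, adjusted p = 0.0455, by edgeR).

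Of the 7 smooth muscle and pericyte markers, with sums of 1456 to 1704, 1278 to 1352 and 1322 to 1442 CPM, Abcc9 fell in Ctrl_HF against Ctrl (mean 773 against 530 CPM, log2 fold change -0.55, adjusted p = 0.00680) and no other passed. Tagln and Acta2, both genes of contractile smooth muscle, had log2 fold changes of 0.55 each (adjusted p = 0.152 and 0.267). Without Abcc9, a step chosen after seeing the data, the sums overlapped, at 758 to 878 CPM in Ctrl, 772 to 812 in Ctrl_HF and 722 to 860 in TTg_HF. The lower sums outside Ctrl thus rested on Abcc9. RNA from whole ventricle does not tell which cells express this gene, so its change need not reflect smooth muscle cells or pericytes. The 6 erythroid markers, from cells that carry residual RNA but no nucleus in the adult mouse, summed to 429 to 658, 778 to 946 and 191 to 837 CPM with none past the threshold. The neutrophil markers summed to 1.52 to 4.70, 6.29 to 7.76 and 1.29 to 2.93 CPM, with 2 of 6 tested and Ly6g at 0 in all libraries. The lymphocyte markers were at 0.927 to 5.89 CPM over all libraries, with none of 7 tested. The part of these differences in the histone levels was not tested.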

How the data were processed

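RNA from whole ventricle was extracted with Trizol, depleted of ribosomal RNA and made into directional libraries, per the labels' protocols. The deposited table holds whole-number counts per gene symbol, called expression values per the file headers. It also holds a signal, which the authors named normalized expression values and which equals the count times 1 factor per library (largest relative deviation 0.000108 for counts over 500). The remaining columns hold log2 of that signal plus 1, which the authors called transformed values (within 0.005). The genome was mm10 per the submitters' processing notes. Which aligner, counting program and annotation were used, and how strand and reads with several matches were treated, was not given in the sources used here. Tests ran on counts, with the authors' factors as an alternative scaling.

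The filterByExpr rule of edgeR 4.0.16 (minimum count 10, minimum total 15) left 12670 genes. Counts were normalised by TMM and fitted in 1 robust quasi-likelihood model over 9 libraries whose only term was the group (median biological coefficient of variation 0.131). Comparisons used two-sided F tests, p-values were adjusted by Benjamini-Hochberg over the 12670 genes, and the threshold was 0.05. SE was taken as the absolute value of the fold change on the log2 scale over the root of F. With 3 libraries a group the smallest exact permutation p is 0.1, and no such test was run. DESeq2 1.42.0, other scalings and filters, a replicate block and leaving out each library were alternatives. This fit was first run on simulated counts with known changes, and no result given here rests on that run. R 4.3.3, limma 3.58.1, Python 3.11.15, pandas 2.3.3 and matplotlib 3.10.9 were used.

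All 70 symbols were found in GENCODE vM21, whose transcripts gave lengths, stem-loops and unique runs of 50 bases. Promoters are from RefSeq (GRCm38.p6). The genes, lists and markers were chosen with earlier results of these data known. In each comparison the 5 histone genes of lowest p were named, with the 12 of highest level, the highest of each class and, in the first and second comparison, the 2 genes of lowest p of each list. Genes whose groups did not overlap, markers past the threshold, listed genes at 0 and the genes named for sequence, annotation or absence were named beyond this rule, after their values were seen. Same-numbered libraries of different groups did not deviate together (correlations of -0.164 to 0.197 over 9 pairs), so the numbers were not used as pairs. Replicates of a group differed by more than sampling noise, so each library counted as 1 sample.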

Additional observations from a re-analysis of the deposited data

How the results depend on the processing

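The count of histone genes past the threshold was 0 in each comparison under DESeq2, DESeq2's size factors, the authors' factors, no filter on low counts, a minimum count of 30, a fit of only the 6 libraries compared and the replicate block. With a library left out it ranged from 0 to 1 in both comparisons with Ctrl_HF, the 1 being Hist4h4 without Ctrl_HF replicate 1, and was 0 each time in TTg_HF against Ctrl; the cause was not tested. The log2 ratio of the summed level, with a library left out, ranged from -0.31 to -0.04, -0.04 to 0.24 and -0.19 to -0.01 in the 3 comparisons, so it turned sign only without Ctrl_HF replicate 3, in TTg_HF against Ctrl_HF. Under other scalings it was -0.15 to -0.14, 0.06 to 0.10 and -0.08 to -0.05. Sign changes of named genes came only with a library left out. Hist1h1c ranged from -0.34 to 0.0184, -0.0525 to 0.31 and -0.13 to 0.0948 (reversed values 0.0184, -0.0525, -0.0185, 0.019 and 0.0948), and Neat1 from -0.17 to 0.13 in Ctrl_HF against Ctrl and -0.0613 to 0.24 in TTg_HF against Ctrl_HF (reversed values -0.0664, -0.0022, -0.1745, -0.0081 and -0.0613); both are far from the threshold. Mcm2 passed in Ctrl_HF against Ctrl also with no filter on low counts, under the replicate block and without Ctrl_HF replicate 2 (adjusted p = 0.0262, 0.0399 and 0.0336). Over all genes the calls were 841, 339 and 182 in DESeq2 against 458, 11 and 59 in edgeR, 126, 0 and 117 in fits of only 6 libraries, and 551, 109 and 118 with no filter. With a library left out they ranged from 85 to 1122, 2 to 665 and 24 to 114, the highest in each comparison without Ctrl_HF replicate 1. The replicate block gave 415, 12 and 52. Depth limits the low members: 46 of 70 were not tested, and a count of 0 in a single library allows 0.316 to 0.440 CPM where a gene's reads could be counted.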
